A study of Mus musculus with 9 samples.

Results

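The genes described here belong to the BMP and TGF-beta family of signalling, measured in cells sorted by a nestin-driven fluorescent reporter, labelled as precursors, from the hippocampal dentate gyrus (DG) and from the subventricular zone (SVZ) along the lateral ventricle of mice. They were matched by symbol to a fixed pattern of names that covers the ligands (Bmp, Gdf, Tgfb and Inhb genes), their receptors, the Smad and Smurf genes, the latent TGF-beta binding proteins and the secreted antagonists. The family was chosen with earlier results of these data known. Of the 14477 genes of the expression table, 43 matched. A further 24 annotated symbols that fit the pattern, among them Nog, Fst, Tgfb1, Bmp2 and Smad6, were not analysed here.

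The RNA-seq data comprised 5 DG libraries and 4 SVZ libraries. All mice were of the strain B6.Cg-Tg(Nes-EGFP)1Yamm, a transgenic line with enhanced green fluorescent protein under control of nestin sequences, and the sort kept cells by that fluorescence. No mouse was treated, all were kept in standard housing, and no source used here gives their ages. Each DG library held 33627909 to 41164044 reads and each SVZ library 31126803 to 32528255. In 6 of the 9 libraries Xist and Ddx3y were both above 3 log2 CPM, and the labels do not say whether a library came from 1 animal or from a pool, so the p-values rest on variation among libraries that may in part be technical.

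Ligands of this family are secreted as dimers and bring together type I and type II receptor kinases. The type I receptor then phosphorylates receptor-regulated SMAD proteins, SMAD1, SMAD5 and SMAD9 for most BMPs and SMAD2 and SMAD3 for TGF-beta and activin, which enter the nucleus with SMAD4. In adult neurogenic regions BMP signalling is known for holding stem cells in quiescence and favouring glial fates, secreted antagonists such as noggin oppose it, and TGF-beta is known for restraining proliferation of precursors and for vessel wall assembly.

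Expression is given as log2 CPM, the log2 of reads scaled to a common library total (counts per 1e6 reads, CPM) after a prior of 1 read was added, and differences are log2 fold changes (DG minus SVZ) with the standard error (SE) that limma gave. The prior makes the fold changes of genes with few reads too small. Levels of different genes are set side by side only as RPKM, which is CPM divided by exon length in kilobases. Marker sums are an exception and are in CPM.

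Most ligands and latency proteins were higher in DG (8 of 12 and 3 of 4), receptors went both ways (5 of 11 higher, 4 lower), and of 9 SMAD and SMURF genes 2 were higher in DG and 4 lower. Of the 43 members, 22 were higher in DG, where 32.9% of all genes were, 10 were lower in DG, where 33.7% of all genes were, and 11 did not pass (limma, adjusted p under 0.05). Together 32 members, or 74.4%, were called, against 66.6% of all 14477 genes, so the number of calls alone was near the background. The median log2 fold change was 0.56 over the members and -0.07 over all genes. Large differences lay on the DG side: 9 members were called at 8-fold or more higher in DG (6.71% of all genes were), 16 members were called at 4-fold or more higher in DG (12.4% of all genes were) and 0 at 4-fold or more lower in DG (3.33% of all genes were), with 10 members called lower in DG by less than 4-fold. Every gene analysed had over 1 CPM in 3 or more libraries, which bears on these counts. Bmp5, Gdf10 and Ltbp2 in the 8-fold count were under 1 CPM in all SVZ libraries, as were Smad9 and Chrd in the 4-fold count. These genes could be analysed only through their DG levels, so their direction, though not its size, was set beforehand. The percentages of all genes rest on the same rule. In 21 members the DG libraries were all above the SVZ libraries, and in 8 all below, against 29.7% and 28.3% of all genes.

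**Figure D1:**
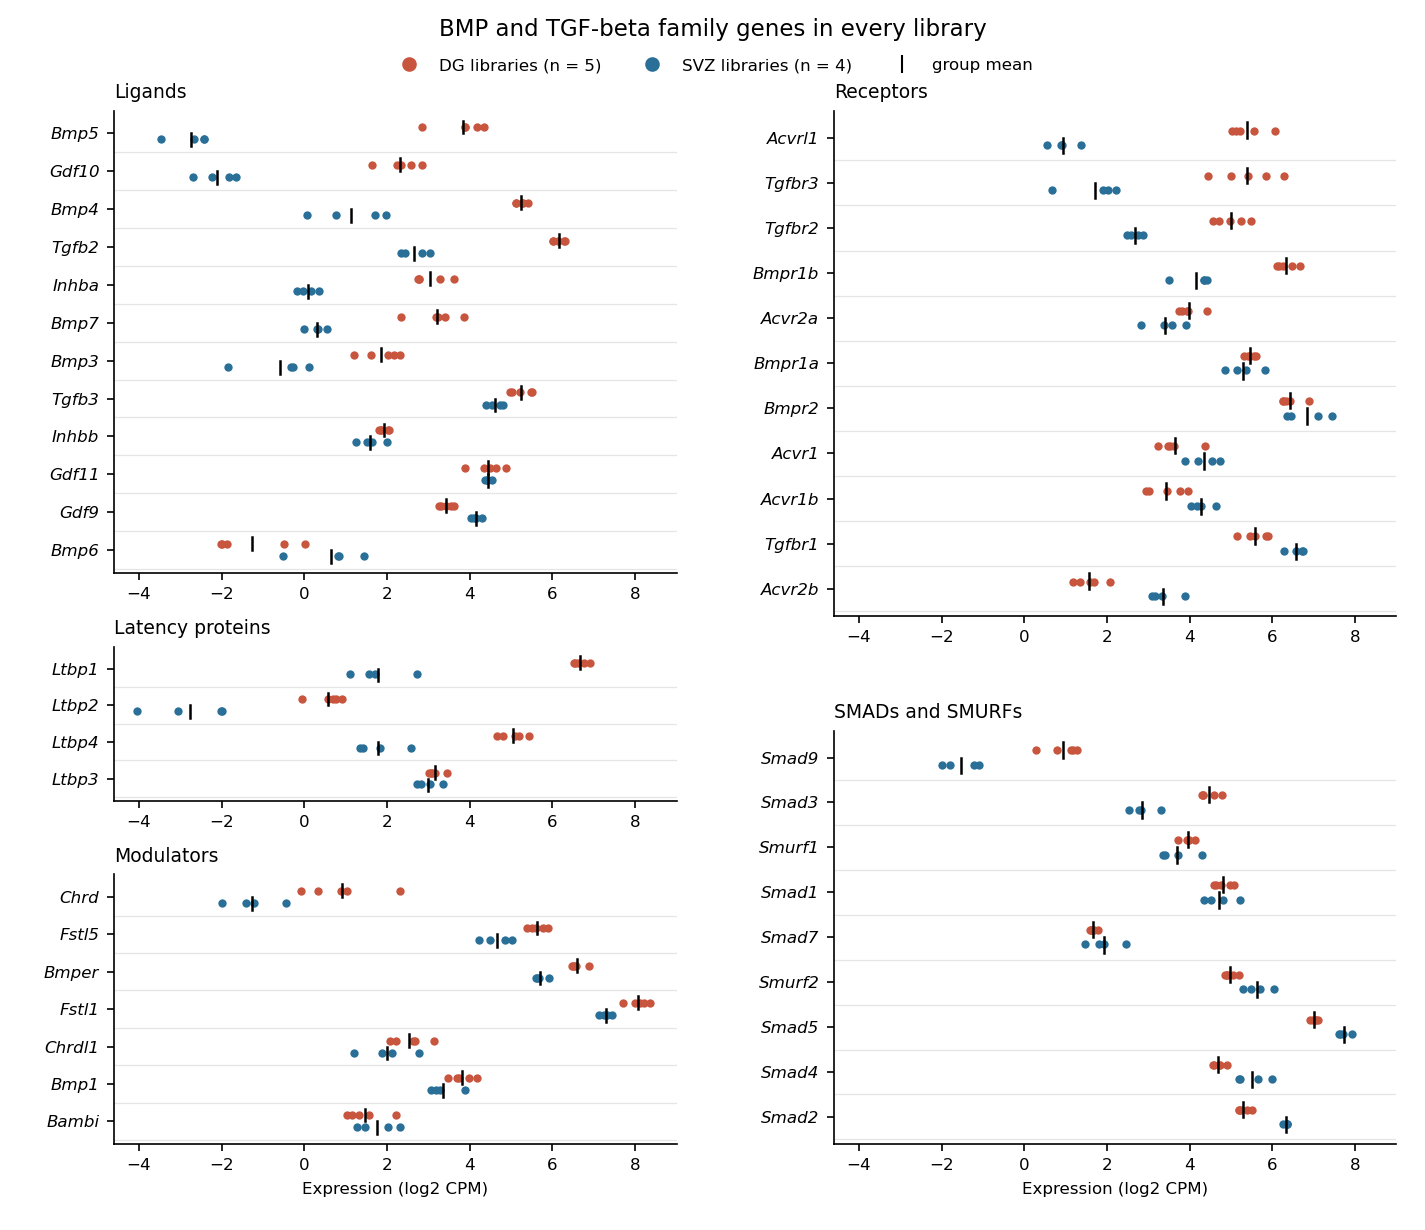
Expression of the 43 members in log2 CPM (x axis) for each gene (y axis), by role and sorted by the difference between regions. Each red point is 1 DG library and each blue point 1 SVZ library, and black ticks are group means. The upper ligands, latency proteins and receptors show red and blue points far apart, with Bmp5 at 2.85 to 4.34 in DG and -3.47 to -2.42 in SVZ, and the SMADs lie closer together.

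The cells of the 2 regions also differed in their makeup, as read from marker genes. All 13 pericyte and smooth muscle markers, all 12 endothelial markers and all 9 fibroblast and meningeal markers were higher in DG. Their summed level was 5692 to 11682 CPM in DG and 75.2 to 188 CPM in SVZ for pericytes, 1211 to 2308 against 13.2 to 71.1 CPM for endothelium and 857 to 1629 against 26.3 to 90.3 CPM for fibroblasts. Pdgfra, which stands in both the fibroblast and the oligodendrocyte lineage list, gave the greater part of the fibroblast sum, and the 8 fibroblast genes without it summed to 252 to 494 CPM in DG and 5.66 to 12.9 CPM in SVZ. Cspg4 stands in both the pericyte and the oligodendrocyte lineage list, and the 12 pericyte genes without it summed to 5450 to 11324 CPM in DG and 72.4 to 170 CPM in SVZ. All 9 astroglial markers were higher in DG as well (16659 to 25218 CPM against 1764 to 3439 CPM), and 7 of 8 oligodendrocyte lineage markers were. All 8 neuroblast markers (4892 to 7331 CPM in DG against 18012 to 21114 CPM in SVZ), 7 of 8 neural precursor markers (731 to 985 CPM in DG against 2319 to 2608 CPM in SVZ) and all 7 ependymal markers were lower in DG. Top2a and Mki67, genes of dividing cells, are in the precursor list. Top2a gave the largest part of that list's sum in every library (8.63 ± 0.30 log2 CPM in DG and 10.48 ± 0.07 in SVZ). The precursor sum is thus weighted toward dividing cells. Nes itself was lower in DG (6.28 ± 0.42 against 7.23 ± 0.34 log2 CPM, -0.95, adjusted p = 0.00238), with overlap. In DG, whose cells are labelled as precursors, the pericyte and smooth muscle sums were above the neural precursor sums. These lists differ in their genes and number of genes, and Vtn gave the largest part of the pericyte sum in DG. The sums therefore do not rank cell types. Of 8 microglia and macrophage markers 2 were higher and 2 lower in DG, and of 7 mature neuron markers 3 were higher and 1 lower. Of the former, Mrc1 and Pf4 were higher without overlap (log2 fold change 5.38 and 5.53). P2ry12 and Tmem119 were lower with overlap (-1.32 and -1.43). No marker was at 0 in any library. The part of these marker differences in the results below was not tested, and in such bulk samples fewer cells of a type and less RNA per cell cannot be told apart. Library DG 2 had the highest neuroblast sum of its group (7331 CPM), DG 3 the highest mature neuron sum (805 CPM against 207 to 263 CPM in the other DG libraries) and SVZ 1 the highest endothelial sum of its group. Without these 3 libraries 31 members were called, 21 higher and 10 lower in DG.

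The promoters of 4 members with large differences are printed to show how much their CG content varied. They are RefSeq windows of 250 bases before to 50 bases after the annotated start (GRCm38.p6), written 5′ to 3′ on the gene's strand, with each CG dinucleotide in capitals. Bmp5, Gdf10 and Bmp4 are shown because they had the largest increases in DG among members with a single window, and Bmp6 because it had the largest decrease. The windows lie at chr9:75775115-75775414 (plus strand) for Bmp5, chr14:33923337-33923636 (plus strand) for Gdf10, chr14:46390620-46390919 (minus strand) for Bmp4 and chr13:38345466-38345765 (plus strand) for Bmp6.
Bmp5: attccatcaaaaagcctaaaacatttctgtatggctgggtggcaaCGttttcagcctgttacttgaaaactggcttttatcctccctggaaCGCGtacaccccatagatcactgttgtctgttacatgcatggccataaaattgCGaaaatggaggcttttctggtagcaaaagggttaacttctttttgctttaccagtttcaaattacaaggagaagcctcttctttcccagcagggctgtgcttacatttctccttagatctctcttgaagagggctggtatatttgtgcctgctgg
Gdf10: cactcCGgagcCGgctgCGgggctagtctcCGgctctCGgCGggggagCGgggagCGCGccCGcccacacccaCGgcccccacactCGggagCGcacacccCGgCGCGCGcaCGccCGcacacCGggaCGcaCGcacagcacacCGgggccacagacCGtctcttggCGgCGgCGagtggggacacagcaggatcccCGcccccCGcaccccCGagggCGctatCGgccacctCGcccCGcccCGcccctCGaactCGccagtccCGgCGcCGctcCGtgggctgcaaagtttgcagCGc
Bmp4: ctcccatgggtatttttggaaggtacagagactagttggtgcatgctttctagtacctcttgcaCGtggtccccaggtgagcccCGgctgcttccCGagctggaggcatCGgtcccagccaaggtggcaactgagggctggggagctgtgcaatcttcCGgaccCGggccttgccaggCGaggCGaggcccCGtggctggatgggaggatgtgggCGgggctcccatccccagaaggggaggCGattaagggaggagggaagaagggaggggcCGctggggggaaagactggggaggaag
Bmp6: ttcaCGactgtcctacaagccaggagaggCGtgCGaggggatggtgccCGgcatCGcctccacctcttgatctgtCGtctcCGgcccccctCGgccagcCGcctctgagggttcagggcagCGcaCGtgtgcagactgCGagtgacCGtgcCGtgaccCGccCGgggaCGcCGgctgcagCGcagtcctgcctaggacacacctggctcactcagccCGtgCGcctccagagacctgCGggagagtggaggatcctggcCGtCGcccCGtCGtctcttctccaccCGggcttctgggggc

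The Bmp5 window held 4 CG dinucleotides and the Bmp4 window 12, whereas the Gdf10 window held 42 and the Bmp6 window 27. Windows were found for 31 members, 40 windows in all since some genes have several starts. The median count of CG was 17 in the 23 windows of members higher in DG and 32.5 in the 10 windows of members lower in DG. The same order held over all genes, with a median of 16 in 4757 windows of genes higher in DG and 22 in 4601 windows of genes lower in DG, so it was not particular to the family. Some windows of 1 gene overlap, and the difference was not tested.

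**Figure D2:**
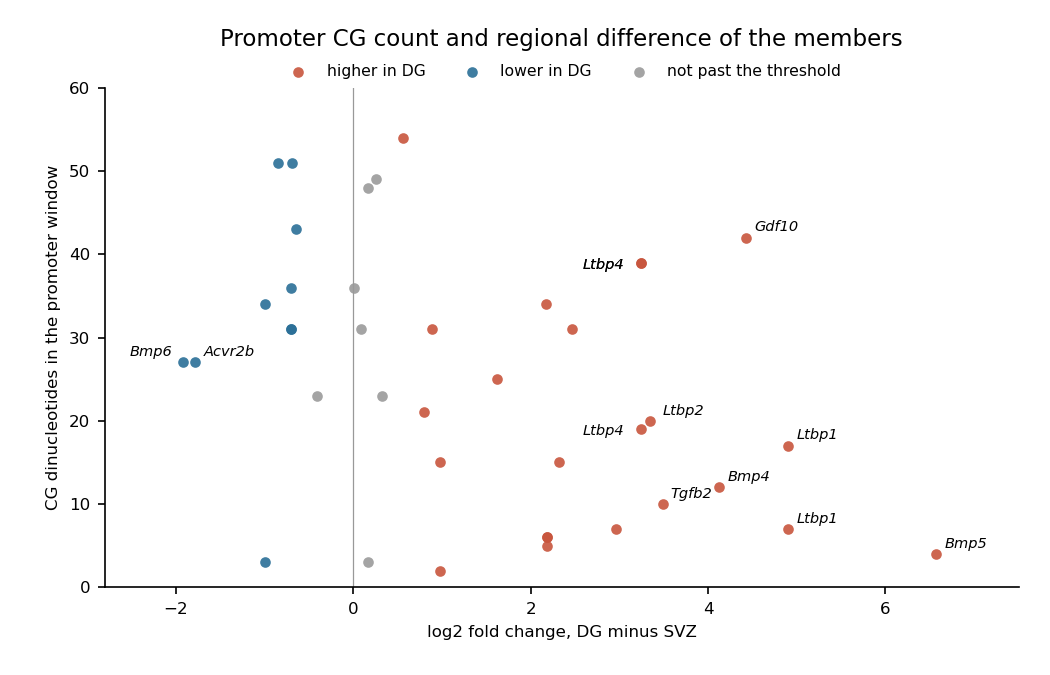
CG dinucleotides in each promoter window of 300 bases (y axis) against the log2 fold change of its gene, DG minus SVZ (x axis), for 40 windows of 31 members. Colours give the call of the gene, and genes with several starts appear more than once. Bmp5, at 6.57 with 4 CG, lies at the lower right, and Gdf10, at 4.42 with 42 CG, at the upper right.

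Of the motifs bound by SMADs, GGCGCC, a palindrome found in BMP target genes, was in 5 of 23 windows of members higher in DG (21.7%), 5 of 10 windows of members lower in DG (50%) and 20.5% of the windows of all genes in the table. Over all genes it was in 17.0% of windows of genes higher in DG and 23.2% of windows of genes lower in DG, the same order. The 23 windows come from 17 genes and the 10 windows from 7. Overlapping windows of a gene, as in Smad5 and Ltbp4, count separately, so these are not counts of genes. In the windows printed above GGCGCC occurs once, in Gdf10, 16 bases after the start. The palindrome GTCTAGAC and the box AGCCAGACA were in 0 of the 40 windows, and in 0.223% and 0.287% of the windows of all genes in the table. All 3 were searched on both strands, and none contains another. A match is a description of letters, and these counts say nothing of binding.

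Of 8 BMP and GDF ligands 5 were higher in DG and 2 lower, against 32.9% and 33.7% of all genes. Vascular and astroglial markers and 7 of 8 oligodendrocyte lineage markers were also higher in DG, and their part in the ligand differences was not tested. Bmp5 (ENSMUSG00000032179, chr9:75775364-75900310), a BMP of the subgroup that includes Bmp6 and Bmp7, stood at 4.17, 4.34, 3.90, 3.88 and 2.85 log2 CPM in DG libraries 1 to 5 and at -2.43, -2.67, -2.42 and -3.47 log2 CPM in SVZ libraries 1 to 4. It was well above its SVZ level in every DG library, and the 4 SVZ libraries together held 16 reads, against 2703 reads in the 5 DG libraries. The difference was 6.57 (SE 0.35, adjusted p = 7.37e-08), or 95.1-fold. Exons of Bmp5 share 1878 bases, 46.7% of their length, with the antisense gene Gm26903, and reads from the opposite strand cannot be told apart in this kit. Smaller stretches of exon are shared on the opposite strand with genes of the table by Acvr2a (Orc4, 7.84% of its length), Bmp6 (Txndc5, 5.74%) and Chrd (Thpo, 3.82%), and the same limit holds for them.

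Bmp4, whose product is known for driving precursors toward astroglia and quiescence, had the highest level per exon length of the ligands in DG (16.9 ± 1.45 RPKM, against 1.09 ± 0.59 RPKM in SVZ). It stood at 5.27, 5.29, 5.13, 5.13 and 5.42 log2 CPM in the DG libraries, against 1.97, 0.77, 0.06 and 1.70 log2 CPM in the SVZ libraries. The DG libraries were close to each other and the SVZ libraries scattered. The difference was 4.12 (SE 0.33, adjusted p = 1.27e-06), or 17.4-fold. The gene lies at chr14:46383520-46390669.

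Gdf10, also known as Bmp3b and the closest relative of Bmp3, was 21.5-fold higher in DG at low levels (2.32 ± 0.45 against -2.10 ± 0.46 log2 CPM, SD, n = 5 and 4, adjusted p = 6.56e-07), with 948 and 27 reads over the groups. Bmp7, which like Bmp4 acts on glial fate, was 7.48-fold higher (3.20 ± 0.55 in DG and 0.30 ± 0.23 in SVZ, adjusted p = 5.52e-06). Bmp3, an atypical member that opposes other BMPs, was 5.44-fold higher (1.86 ± 0.45 in DG and -0.58 ± 0.86 in SVZ, adjusted p = 0.000273). In none of the 3 genes did the groups overlap.

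Bmp6 went the other way. It stood at 0.01, -1.99, -0.48, -1.86 and -2.01 log2 CPM in DG and at 0.81, 0.84, 1.45 and -0.50 log2 CPM in SVZ, so the groups overlapped. The difference was -1.92 (SE 0.54, adjusted p = 0.00876), on 84 reads in DG and 217 in SVZ. Gdf9, an oocyte growth factor, was lower in DG without overlap, at 3.42, 3.55, 3.26, 3.31 and 3.63 log2 CPM against 4.11, 4.15, 4.02 and 4.29 log2 CPM in SVZ (-0.71, SE 0.13, adjusted p = 0.000663). Gdf11, a relative of myostatin that signals through activin receptors, stood at 4.44 ± 0.37 in DG and 4.44 ± 0.07 in SVZ (log2 fold change 0.00, SE 0.18, adjusted p = 0.986).

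Among TGF-beta and activin ligands 3 of 4 were higher in DG, where 32.9% of all genes were. Tgfb2 (ENSMUSG00000039239, chr1:186622792-186705989), a TGF-beta isoform of glia and vessel walls, had the smallest adjusted p of the ligands among the members. Its level was 6.14, 6.02, 6.31, 6.27 and 6.02 log2 CPM in DG and 2.43, 2.85, 3.05 and 2.33 log2 CPM in SVZ. The spread within each region was small beside the difference of 3.49 (SE 0.16, adjusted p = 3.27e-08), or 11.2-fold. Tgfb3 was 1.54-fold higher (5.24 ± 0.25 against 4.62 ± 0.18, adjusted p = 0.00308). Inhba, which encodes the subunit of activin A, was 7.80-fold higher (3.04 ± 0.40 against 0.08 ± 0.23, adjusted p = 1.49e-06), whereas the activin B subunit gene Inhbb had 1.92 ± 0.11 log2 CPM in DG against 1.60 ± 0.31 in SVZ (adjusted p = 0.175).

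Per exon length, the ligand mix of the regions differed. The 12 ligands summed to 61.4 ± 2.98 RPKM in DG and 25.4 ± 0.90 RPKM in SVZ (SD, n = 5 and 4). Bmp4 held 27.7 ± 3.58% of that sum in DG and 4.29 ± 2.27% in SVZ, and Tgfb2 held 20.1 ± 1.49% and 4.40 ± 1.05%. In SVZ the leading ligands were Gdf9, with 8.73 ± 1.35% of the sum in DG and 34.4 ± 3.48% in SVZ, Tgfb3, with 18.4 ± 2.56% and 28.8 ± 2.89%, and Gdf11, with 8.92 ± 1.99% and 21.1 ± 0.71%. Shares are of these 12 ligands only, and a share falls when another ligand is higher. Nodal, described below, is outside the sum, with 14.6 ± 4.41 RPKM in DG and 0.10 ± 0.04 RPKM in SVZ. With it the DG shares given here would be smaller.

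**Figure D3:**
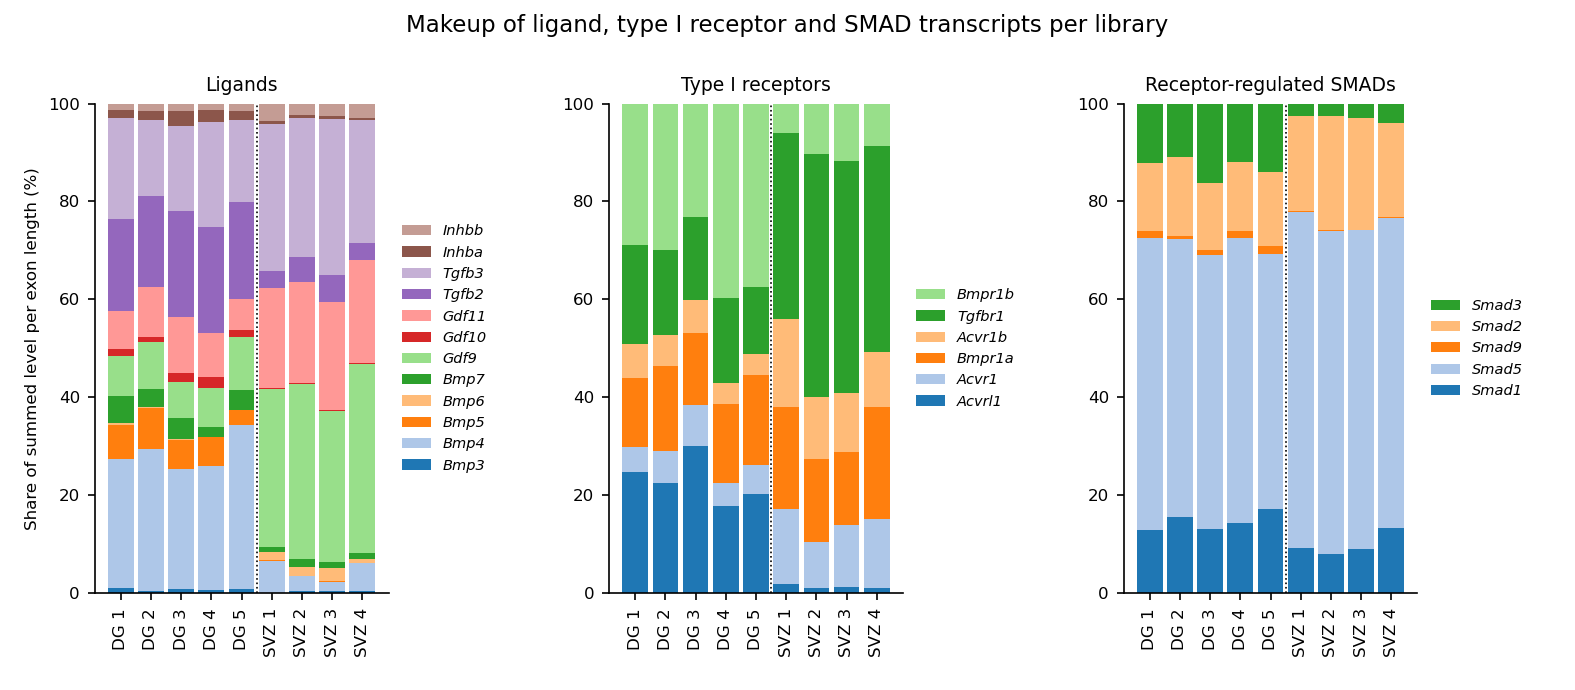
Share of the summed level per exon length (y axis, percent) of each ligand, type I receptor and receptor-regulated SMAD among the members in each library (x axis, DG libraries left of the dotted line, SVZ libraries right). Bmp4 and Tgfb2 are wide bands in DG and narrow in SVZ, Acvrl1 and Bmpr1b take 23.1% and 31.8% of type I receptors in DG on average against 1.37% and 9.23% in SVZ, and Smad5 is the widest SMAD band in all 9 libraries.

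Latent TGF-beta binding proteins hold secreted TGF-beta in the matrix until it is released. Of the 4 genes 3 were higher in DG, against 32.9% of all genes, and fibroblast and pericyte markers were higher there too. Ltbp1 (ENSMUSG00000001870, chr17:75005568-75392512) stood at 6.91, 6.54, 6.75, 6.53 and 6.62 log2 CPM in DG and at 2.72, 1.10, 1.71 and 1.56 log2 CPM in SVZ. The DG libraries were alike and SVZ 1 was the highest of its group. The difference was 4.90 (SE 0.26, adjusted p = 7.89e-08), or 29.8-fold.

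Ltbp4, which also takes part in elastic fibre assembly, had 5.19, 5.09, 5.44, 4.67 and 4.80 log2 CPM in DG and 2.57, 1.41, 1.34 and 1.83 log2 CPM in SVZ, and SVZ 1 was again the highest (3.25, SE 0.26, adjusted p = 1.20e-06). Ltbp2, the member that does not bind TGF-beta, was 10.2-fold higher in DG at levels near the detection limit, with 275 reads in DG and 18 in SVZ (adjusted p = 7.20e-05). Ltbp3 averaged 3.15 ± 0.18 log2 CPM in DG, against 2.99 ± 0.28 log2 CPM in SVZ (0.17, adjusted p = 0.41). It made up 6.21 ± 0.47% of the summed RPKM of the 4 genes in DG and 50.2 ± 9.46% in SVZ, and Ltbp1 made up 60.4 ± 3.59% and 18.5 ± 5.34%.

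Secreted modulators were higher in DG by less. Of 7 modulators 4 were higher in DG (32.9% of all genes were), 0 were lower (33.7% of all genes were) and 3 did not pass (limma). Bmper, which binds BMPs and can block or aid them, had the smallest adjusted p of the role, at 6.50, 6.54, 6.48, 6.89 and 6.57 log2 CPM in DG and 5.91, 5.62, 5.69 and 5.60 log2 CPM in SVZ. All DG libraries were above all SVZ libraries, and DG 4 stood above the rest of its group (0.89, SE 0.11, adjusted p = 3.45e-05).

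Chordin, the antagonist encoded by Chrd, was lowly expressed, at -0.07, 1.04, 2.31, 0.34 and 0.89 log2 CPM in DG and -1.42, -0.44, -1.995 and -1.22 log2 CPM in SVZ. The libraries scattered within both regions but did not overlap (2.17, SE 0.49, adjusted p = 0.00221), on 404 reads in DG and 53 in SVZ. Fstl1, a follistatin-related glycoprotein, had the highest level of all 43 members in both regions, at 55.6 ± 9.05 RPKM in DG and 31.8 ± 2.94 RPKM in SVZ, and was 1.73-fold higher in DG (adjusted p = 0.000215). Fstl5 was 1.97-fold higher (adjusted p = 0.000439). The 3 that did not pass were the chordin relative Chrdl1 (2.54 ± 0.42 in DG and 1.99 ± 0.65 in SVZ, adjusted p = 0.147), the chordin-cleaving protease gene Bmp1 (3.81 ± 0.27 and 3.35 ± 0.36, adjusted p = 0.0618) and the pseudoreceptor gene Bambi (1.46 ± 0.46 and 1.76 ± 0.49, adjusted p = 0.391).

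Receptors went both ways. Of 11 receptor genes 5 were higher in DG (45.5%), 4 were lower (36.4%) and 2 did not pass. Of all genes 32.9% were higher and 33.7% lower, so these counts were near the background. Acvrl1 (ENSMUSG00000000530, chr15:101128522-101145336), the endothelial type I receptor also called ALK1, had the smallest adjusted p. It stood at 5.56, 5.21, 6.05, 5.03 and 5.11 log2 CPM in DG and at 1.38, 0.56, 0.88 and 0.91 log2 CPM in SVZ. DG 3 and SVZ 1, the libraries with the highest endothelial sums of their groups, were also highest for Acvrl1. The part of endothelial cells in the Acvrl1 values was not tested. The difference was 4.46 (SE 0.24, adjusted p = 7.43e-08), or 22.0-fold, beside endothelial markers with a median log2 fold change of 6.23.

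The BMP type I receptors Bmpr1a and Bmpr1b did not move together. Bmpr1b (ENSMUSG00000052430, chr3:141837136-142169425) stood at 6.26, 6.11, 6.16, 6.66 and 6.48 log2 CPM in DG and at 3.49, 4.34, 4.43 and 4.34 log2 CPM in SVZ, so that the groups were well apart and SVZ 1 was the lowest library (2.18, SE 0.20, adjusted p = 3.06e-06, 4.54-fold). Bmpr1a stood at 5.32, 5.40, 5.61, 5.45 and 5.55 log2 CPM in DG and at 5.36, 5.14, 4.86 and 5.82 log2 CPM in SVZ, with an SVZ range that spans the DG range (0.17, SE 0.17, adjusted p = 0.392). Per exon length Bmpr1b was above Bmpr1a in all 5 DG libraries and below it in all 4 SVZ libraries: the log2 ratio of their RPKM was 0.65 to 1.30 in DG and -1.78 to -0.34 in SVZ.

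The other 3 type I receptors were lower in DG. Tgfbr1 (ALK5) stood at 5.89, 5.45, 5.84, 5.58 and 5.15 log2 CPM in DG and at 6.27, 6.72, 6.56 and 6.75 log2 CPM in SVZ, without overlap (-0.99, SE 0.16, adjusted p = 0.000246). Acvr1b (ALK4) was lower by -0.85 (3.43 ± 0.44 in DG and 4.28 ± 0.25 in SVZ, adjusted p = 0.00622). Acvr1 (ALK2) overlapped between groups (3.65 ± 0.43 and 4.34 ± 0.37, adjusted p = 0.0248), and its call was lost when any of DG 1, DG 4, SVZ 1 or SVZ 4 was left out (adjusted p = 0.0521, 0.0585, 0.0655 and 0.074).

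Among 4 type II receptors 2 were higher in DG and 1 was lower, against 32.9% and 33.7% of all genes. Tgfbr2, which binds TGF-beta itself, was 5.00-fold higher in DG (5.00 ± 0.37 against 2.67 ± 0.18, adjusted p = 1.61e-06). Acvr2b, a receptor of activins and GDFs, was lower in DG and had the smallest adjusted p among receptors lower there, at 1.18, 1.68, 2.08, 1.35 and 1.59 log2 CPM in DG and 3.32, 3.08, 3.15 and 3.88 log2 CPM in SVZ (-1.78, SE 0.24, adjusted p = 5.75e-05). Every DG library was below the lowest SVZ library.

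Bmpr2, the main type II receptor of BMPs, stood at 6.26, 6.43, 6.88, 6.25 and 6.32 log2 CPM in DG and at 7.11, 6.35, 6.44 and 7.44 log2 CPM in SVZ, with overlap (-0.41, SE 0.22, adjusted p = 0.125). Acvr2a was 1.47-fold higher in DG (3.97 ± 0.26 and 3.41 ± 0.46, adjusted p = 0.0433), with overlap, and this call was lost when any of DG 2, DG 3, DG 4, DG 5, SVZ 1, SVZ 2 or SVZ 3 was left out (adjusted p = 0.0535 to 0.131) or DG 2, DG 3 and SVZ 1 together (adjusted p = 0.167). Tgfbr3, the co-receptor betaglycan, stood at 5.41, 5.84, 6.27, 4.99 and 4.45 log2 CPM in DG and at 2.03, 1.90, 2.22 and 0.68 log2 CPM in SVZ. DG 5 and SVZ 4 were the lowest of their groups and the groups did not overlap (3.69, SE 0.39, adjusted p = 1.02e-05, 12.9-fold).

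The SMAD genes showed opposite differences within the same branch. Smad2 and Smad3, which both carry TGF-beta and activin signals, went apart. Smad2 stood at 5.19, 5.50, 5.19, 5.23 and 5.38 log2 CPM in DG and at 6.35, 6.34, 6.36 and 6.25 log2 CPM in SVZ, with little spread in either group (-1.03, SE 0.10, adjusted p = 4.17e-06). Smad3 (ENSMUSG00000032402, chr9:63646767-63757994) stood at 4.32, 4.31, 4.79, 4.33 and 4.59 log2 CPM in DG and at 2.82, 2.52, 2.77 and 3.30 log2 CPM in SVZ, again without overlap (1.62, SE 0.18, adjusted p = 1.45e-05). Per exon length Smad3 and Smad2 were nearly level in DG, with a log2 ratio of RPKM of -0.53 to 0.26, and Smad3 was far below Smad2 in SVZ, with a log2 ratio of -3.16 to -2.29.

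In the BMP branch the most abundant SMAD was lower in DG and the least abundant was higher. Smad5 had 17.4 ± 0.83 RPKM in DG and 28.5 ± 3.09 RPKM in SVZ and was lower in DG (7.01 ± 0.07 against 7.72 ± 0.15 log2 CPM, adjusted p = 3.79e-05). Smad9 (SMAD8), with 0.36 ± 0.09 RPKM in DG and 0.06 ± 0.02 RPKM in SVZ, was 5.52-fold higher in DG (adjusted p = 5.20e-05). Smad1 stood at 4.59, 4.98, 4.64, 4.76 and 5.07 log2 CPM in DG and at 4.80, 4.34, 4.52 and 5.22 log2 CPM in SVZ, with the DG libraries inside the SVZ range (0.09, SE 0.18, adjusted p = 0.684).

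Smad4, the common partner of both branches, stood at 4.56, 4.89, 4.72, 4.58 and 4.72 log2 CPM in DG and at 5.66, 5.19, 5.21 and 5.99 log2 CPM in SVZ (-0.82, SE 0.17, adjusted p = 0.00133), every DG library below every SVZ library. The inhibitory Smad7 did not pass (1.66 ± 0.08 in DG and 1.92 ± 0.41 in SVZ, adjusted p = 0.305). Of the ubiquitin ligases that remove SMADs and receptors, Smurf2 was lower in DG (4.98 ± 0.14 and 5.63 ± 0.32, adjusted p = 0.00255) and Smurf1 did not pass (3.95 ± 0.15 and 3.69 ± 0.44, adjusted p = 0.26).

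**Figure D4:**
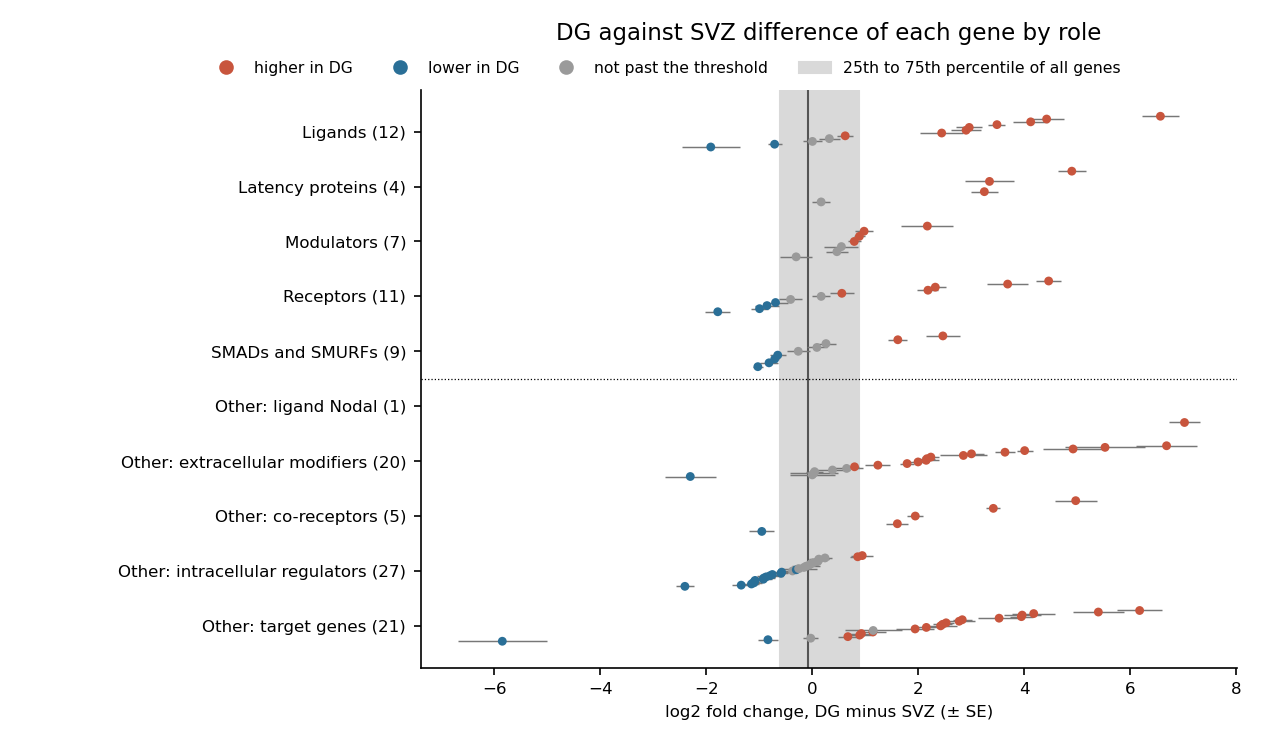
Log2 fold change, DG minus SVZ, with its SE (x axis) of each member by role above the dotted line and of 74 other pathway genes below it (y axis, number of genes in brackets). Colours give the call, the grey band spans the 25th to 75th percentile of all genes and the line their median of -0.07. Extracellular roles lie mostly to the right, and the 27 other intracellular regulators lie mostly at or left of the median.

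Other genes of the pathway were taken from a list of 98 symbols, of which 74 were analysed. Of these 38 were higher in DG, 18 were lower and 18 did not pass, with a median of 0.83, again beside 32.9% and 33.7% of all genes. Among 20 extracellular modifiers 14 were higher in DG and 1 was lower, and among 5 co-receptors 4 were higher and 1 lower. The list shares Dcn, Col1a1 and Col1a2 with the fibroblast markers. Bgn, the matrix proteoglycan biglycan, was 16.1-fold higher (9.12 ± 0.31 against 5.11 ± 0.16 log2 CPM, adjusted p = 1.42e-08), and Htra3, a protease that can inhibit TGF-beta, 12.4-fold (5.17 ± 0.26 against 1.53 ± 0.29, adjusted p = 5.59e-08). Nrp1, a co-receptor for TGF-beta as well as for semaphorins, was 10.7-fold higher (adjusted p = 1.40e-08).

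Eng, which encodes endoglin, the endothelial co-receptor that works with ALK1, was 31.4-fold higher in DG (5.10 ± 0.72 against 0.12 ± 0.67, adjusted p = 1.16e-06), beside the endothelial markers. DG 3 was the highest DG library for Eng (5.68 log2 CPM), but in SVZ the highest was SVZ 3 (0.63) and not SVZ 1 (0.36). Nodal, the only other ligand analysed, had the largest difference of the list. It stood at 5.32, 5.30, 4.64, 4.90 and 4.22 log2 CPM in DG and at -1.55, -2.17, -2.42 and -2.45 log2 CPM in SVZ, far apart in every library (7.02, SE 0.29, adjusted p = 2.02e-08, 130-fold). The nodal protein is known from the patterning of the early embryo and signals through the activin receptors.

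Of 27 intracellular regulators 2 were higher in DG (32.9% of all genes were), 14 were lower (33.7% of all genes were) and 11 did not pass (limma), with a median of -0.37 against -0.07 over all genes. Peg10, an imprinted gene whose protein can bind ALK1, had the largest difference (2.24 ± 0.22 in DG and 4.64 ± 0.18 in SVZ, -2.40, adjusted p = 3.85e-07). The ubiquitin ligase gene Nedd4l was lower in DG by -1.09 (adjusted p = 7.54e-06), the SMAD-binding repressor gene Zeb2 by -1.08 (adjusted p = 1.73e-05) and the kinase gene Hipk2 by -1.15 (adjusted p = 2.24e-05). These differences stood beside neuroblast and neural precursor markers that were lower in DG.

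Of 21 genes known as targets of SMADs in various cell types 17 were higher in DG (32.9% of all genes were), 2 were lower (33.7% of all genes were) and 2 did not pass, with a median of 2.42. Id1, Id2 and Id3, inhibitors of differentiation that BMPs induce, were higher by 2.46 (5.17 ± 0.17 against 2.71 ± 0.37 log2 CPM, adjusted p = 5.82e-07), 2.53 (8.92 ± 0.23 against 6.39 ± 0.25, adjusted p = 9.81e-08) and 2.83 (7.92 ± 0.19 against 5.09 ± 0.42, adjusted p = 2.34e-07). Id4 was lower by -0.84 (3.99 ± 0.27 against 4.82 ± 0.33, adjusted p = 0.00205). The other target gene lower in DG, named after its values were seen, was Dlx5, a homeobox gene of inhibitory neuron precursors. It stood at 1.70, 6.15, 1.22, 2.03 and 1.43 log2 CPM in DG and at 8.42, 8.39, 8.56 and 8.07 log2 CPM in SVZ (-5.85, SE 0.84, adjusted p = 9.64e-05). DG 2, the DG library with the highest neuroblast sum, was far above the rest of its group for Dlx5. Endothelial cells and astrocytes also express some Id genes, and markers of both were higher in DG (median log2 fold change 6.23 and 2.22), whereas Id4 was lower. The part of cell makeup in the Id and Dlx5 differences was not tested.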

How the data were processed

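Green-fluorescent cells of dissected DG and SVZ were sequenced as whole-length cDNA made with a poly-dT primer, amplified over 12 cycles and made into libraries without strand information, per the labels' protocols. STAR, edgeR and mm10 are named for the authors' work by the submitters' processing notes; no source used here states versions, the counter or the low-count filter. The deposited values are log2 CPM with a prior of 1 read, scaled to library totals by the authors, as inferred from the values. Reads recovered with that formula were whole for 100% of values (tolerance 0.001), and each gene exceeded 1 CPM in at least 3 libraries. Since the unit is not counts, the test was limma (3.58.1, under R 4.3.3), with its trended prior variance, on the deposited log2 values, tissue as the only term, all 9 libraries and 14477 genes, with Benjamini-Hochberg adjustment. Symbols, coordinates and exon lengths came from GENCODE M21 (same build). 14428 identifiers had a symbol and 49 did not. No library pair within a group looked like a repeat deposit (chi-square over degrees of freedom, 19.8 to 174). PCR copies were not marked, so reads are not independent molecules. Genes were named by a rule: members at 8-fold or more whose higher group averaged 3 log2 CPM or above, the smallest adjusted p per role and direction, and a fixed set. For the other pathway genes it took the 4 smallest adjusted p per direction, with Id1 to Id4 and Eng. The members and lists were chosen with earlier results of these data known. Alternatives covered scaling (median of ratios), priors of 0.25 and 3 reads, a filter at a mean of 3 log2 CPM, limma without trend, voom weights, each library left out and a replicate block; another, leaving out DG 2, DG 3 and SVZ 1 together, was chosen after seeing the data.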

Additional observations from a re-analysis of the deposited data

Results flagged for a closer look

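Among the 43 members and 13 other pathway genes named, 112 groups of 4 or 5 libraries were examined for a library whose gap to its nearest neighbour took most of the group's range, and 3 were found. Chance marks about 1 in 20 groups. Bmper in DG 4 stood at 6.89 log2 CPM, above 6.48 to 6.57 in the other DG libraries. Bmpr1b in SVZ 1 stood at 3.49, below 4.34 to 4.43 in the other SVZ libraries, and SVZ 1 also had the highest endothelial sum of its group (71.1 CPM against 13.2 to 18.2 CPM) and the lowest astroglial sum (1764 CPM against 2984 to 3439 CPM). The part of either in the Bmpr1b value was not tested. Smad2 in SVZ 4 stood at 6.25, below 6.34 to 6.36, a gap that is small beside the difference between regions. All 3 genes were called with and without these libraries.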

How the results depend on the processing

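Of the 43 members, 32 were called, and 30 to 34 were when any 1 library was left out (21 to 25 higher and 9 to 11 lower in DG). Under the filter on low values, which tested 9762 genes and 29 members, 14 members were higher in DG, with 23 other pathway genes and 2938 of all genes higher; these counts are smaller because fewer genes were tested. The other pathway genes called numbered 55 to 57 with 1 library left out (38 or 39 higher and 17 or 18 lower), and all genes 8970 to 9529 (4522 to 4775 higher and 4448 to 4820 lower). Gdf11, which did not pass in any setting, changed sign with voom weights (-0.0028), without the 3 libraries set apart (-0.20) and in the range of single libraries left out (-0.10 to 0.14). Smad1 ranged from -0.039 to 0.25 in the same way. Bmp1 passed under median-of-ratios scaling (0.50, adjusted p = 0.0418) and without DG 4 or SVZ 4 (0.0425 and 0.00934). Chrdl1 and Bmpr2 passed without SVZ 2 (0.0385 and 0.044), and Bmpr1a and Smurf1 without SVZ 4 (0.0397 and 0.0184). Same-numbered DG and SVZ libraries did not deviate together (r = -0.17 to 0.01). With 4 such pairs this check cannot exclude pairing, since libraries of the same mice need not deviate together over all genes. The labels do not say whether the numbers pair libraries. With a replicate block on the 4 shared numbers 30 members were called, 21 higher and 9 lower; Acvr1 and Acvr2a lost their calls (adjusted p = 0.0847 and 0.0922). Genes at a few reads in SVZ, such as Bmp5 and Ltbp2, have fold changes limited by depth. No other call on a member changed under the other settings that used all 9 libraries.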
